A study of Rattus norvegicus with 6 samples.

Results

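The neurotrophins and their receptors were followed through the genes Ngfr, Ntrk2, Ntrk3, Bdnf, Ntf3 and Sort1. All probe sets (groups of short probes that together measure 1 transcript) whose annotated gene symbol was one of these 6 were taken, which gave 6 of the 14217 gene symbols measured and 12 of the 31099 probe sets on the array: 5 for Ntrk2, 2 each for Bdnf and Sort1, and 1 each for Ngfr, Ntrk3 and Ntf3. The rule for taking probe sets used the gene symbols alone. The rat cells were primary cortical cells, and each dish received 13.3 µg of either a Math2 expression vector (3 arrays) or a control vector (3 arrays). Math2, now called Neurod6, is a neuronal transcription factor with a basic helix-loop-helix domain. Both groups also carried 2.7 µg of a vector for LNGFR, the low-affinity neurotrophin receptor encoded by Ngfr, here without its cytoplasmic part, and were sorted magnetically by that receptor after 24 h. The cells of either group were thus transfected, sorted cells, and an unsorted or untransfected group is not analysed here. The strain, age and number of animals and the promoter that drove the vectors are not given in the labels. Nor do the labels say whether samples of a group came from separate cultures, so the p-values refer to the spread of these samples alone, which may be technical.

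Neurotrophins are small secreted proteins that keep neurons alive and shape their axons, dendrites and synapses. Bdnf and Ntf3 are made as precursors. The mature forms bind tyrosine kinase receptors of the Trk family, Bdnf mainly TrkB (gene Ntrk2) and Ntf3 mainly TrkC (Ntrk3), which signal through Ras, phosphatidylinositol kinase and phospholipase C. Ngfr, also called p75 or LNGFR, binds all neurotrophins, has no kinase of its own and belongs to the tumour necrosis factor receptor family. Sort1 encodes sortilin, a sorting receptor that binds precursor neurotrophins and pairs with Ngfr. In the developing cortex, Ntrk2 is made by neurons in a full-length form and by astrocytes largely in truncated forms.

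Promoter sequences bear on this gene set because Math2 belongs to a family that binds E-boxes, sites with the letters CANNTG. The RefSeq table of the GRCr8 assembly, with windows from 250 bases before to 50 bases after an annotated transcript start, matched 3 of the 6 genes: Bdnf with 6 starts, Ntf3 with 3 and Sort1 with 1. Ngfr, Ntrk2 and Ntrk3 had no entry. CANNTG was present in 9 of these 10 windows, several of which overlap, and in 72.1% of all 33469 windows of that length. This form reads alike on both strands. The windows below belong to the neurotrophin genes and to the only tested member whose groups did not overlap, and E-box letters are in capitals. For Bdnf and Ntf3 the window was chosen because it holds CATATG or, read on either strand, CAGATG, cores that the Neurod family is known to bind.
Sort1 chr2:198612245-198612544, plus strand: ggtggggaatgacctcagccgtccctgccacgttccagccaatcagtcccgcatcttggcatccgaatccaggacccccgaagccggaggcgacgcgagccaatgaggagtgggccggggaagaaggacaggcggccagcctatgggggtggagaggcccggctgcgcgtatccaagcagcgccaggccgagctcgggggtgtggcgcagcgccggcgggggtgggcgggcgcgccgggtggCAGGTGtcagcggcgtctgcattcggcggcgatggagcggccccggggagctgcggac
Bdnf chr3:116637608-116637907, plus strand: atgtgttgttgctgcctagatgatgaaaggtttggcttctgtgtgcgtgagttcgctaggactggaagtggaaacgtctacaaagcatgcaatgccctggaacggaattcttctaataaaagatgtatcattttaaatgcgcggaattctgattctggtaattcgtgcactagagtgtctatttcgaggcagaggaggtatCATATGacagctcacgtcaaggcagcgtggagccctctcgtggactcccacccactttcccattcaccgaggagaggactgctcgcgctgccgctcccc
Ntf3 chr4:160668858-160669157, minus strand: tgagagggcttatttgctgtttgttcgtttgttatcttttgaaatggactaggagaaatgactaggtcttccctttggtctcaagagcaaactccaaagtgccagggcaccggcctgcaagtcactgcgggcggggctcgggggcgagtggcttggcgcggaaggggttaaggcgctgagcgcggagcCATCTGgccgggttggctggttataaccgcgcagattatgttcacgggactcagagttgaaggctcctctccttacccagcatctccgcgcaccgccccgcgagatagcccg
The Sort1 window held CAGGTG, whose share over all windows was not counted, starting 8 bases before the transcript start. In the Bdnf window CATATG started 49 bases before it, and 4.11% of all windows hold that core. In the Ntf3 window CATCTG, which is CAGATG on the other strand, started 62 bases before it, and 16.6% of all windows hold CAGATG on either strand. These shares are per window and per core. The Bdnf window was picked from 6 and the Ntf3 window from 3 for holding either core, so the shares do not measure how rare such a match is. CAGCTG, which 15.1% of all windows hold, was searched for too and lay in other, overlapping Bdnf windows. The last 50 bases of each window lie in the transcript. The array measured no binding, so these matches describe the sequences only, and from which of the 6 Bdnf starts the measured transcripts came is not known.

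All arrays had been scaled to a like mean, and median signals ran from 102 to 120. Values below are MAS5 signals, which are brightness values on a linear scale, and log2 differences are Math2 minus control after adding 7.42 to each signal. Probe sets with a mean log2 value of at least 6.07 were tested. Hybridization spike-ins had a geometric mean signal of 1893 to 2566 on control arrays and 3875 to 6773 on Math2 arrays. The Gapdh 3' to 5' ratio, a sign of RNA quality, ran from 3.74 to 13.8 and from 5.997 to 8.48, and was highest on control array 1. The probe set of Neurod6 itself read 386, 207 and 973 in the control group and 312, 167 and 1546 in the Math2 group. The sequence of the transfected insert is not in the labels, so this probe set may miss it and is no check of the labels. Here and below, 3 values of a group stand in the order of the replicate numbers 1, 2 and 3. Of 12 pan-neuronal markers, 9 lay above every array median on all 6 arrays, as did 7 of 9 astrocyte markers, while 0 of 9 microglial markers did.

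No tested probe set of these genes passed the test between the groups. Of 8 tested probe sets, covering Ntrk2, Ntrk3, Bdnf and Sort1, limma called 0 higher and 0 lower at an adjusted p of 0.05, against 0% of all 18625 tested probe sets in either direction. All 8 had an adjusted p of 1.00 in limma, and 0 of them had an unadjusted p under 0.05, against 3.19% of all tested probe sets. With the replicate number as a block, their adjusted p in limma ran from 0.755 to 0.991, 0 had an unadjusted p under 0.05, against 7.7% of all, and 0 were called, against 0.0161% of all called higher and 0% called lower. On the 8 probe sets 2 log2 differences were above 0 and 6 below, with a median of -0.14, against a median of -0.031 over all tested probe sets. The groups did not overlap for 1 of the 8, against 8% of all tested probe sets. The number of arrays limits what can be seen. The intervals below, from fits without the block unless it is named, give the changes that these data still allow.

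**Figure D1:**
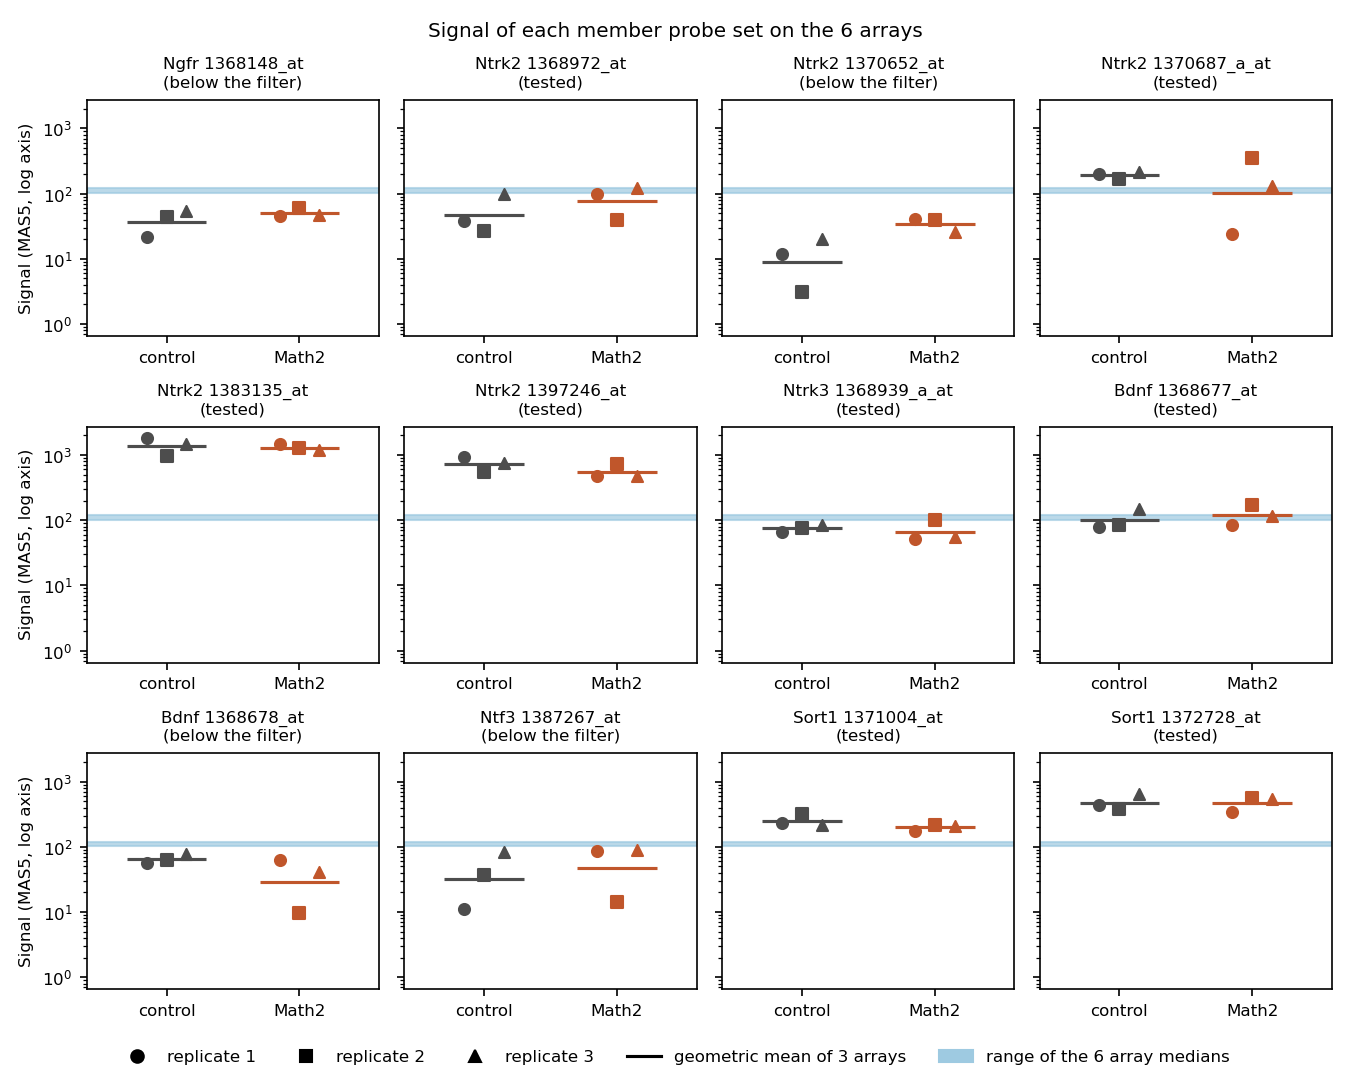
MAS5 signal (log axis) of each of the 12 probe sets on the 3 control and 3 Math2 arrays, with marker shape for the replicate number, a bar for the geometric mean and a blue band for the 6 array medians (102 to 120). Both Sort1 probe sets and Ntrk2 1383135_at and 1397246_at stayed above the band on all arrays, whereas Ngfr 1368148_at stayed below it on all arrays.

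Ngfr, the gene of the receptor used as the selection tag, gave a dim signal on every array. Its only probe set, 1368148_at, read 21.5, 43.4 and 53.9 in the control group and 44.6, 59.4 and 47.2 in the Math2 group. All 6 values lay below the lowest array median, and the groups overlapped, with control array 1 the lowest. The means were 39.6 ± 16.5 and 50.4 ± 7.89 (SD, n = 3), which made a log2 difference of 0.36 (SE 0.474; 95% interval -0.70 to 1.41). This probe set was below the filter and was not tested, and its interval comes from the fit without a filter. Without control array 1, which had the highest Gapdh ratio, the difference was 0.041, and the part of RNA quality in it was not tested.

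The sorted cells carried a receptor vector in both groups, yet the Ngfr probe set was dim in both. The labels give neither the species of the LNGFR insert nor whether it includes the transcript stretch that the probes read. The array designs probes near the 3' end of a transcript, and the insert lacks the coding part for the cytoplasmic domain. The probe set therefore measures no more than transcripts that hold its own target, and whether the tag is one of these cannot be told. As these were bulk samples, fewer cells with a transcript and less transcript per cell cannot be told apart.

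Ntrk2, the TrkB gene, was read by 5 probe sets, and their log2 differences ran from -0.78 to 1.23. The brightest, 1383135_at, read 1852, 977 and 1494 in the control group and 1460, 1271 and 1183 in the Math2 group. All Math2 values lay within the range of the control values. The means were 1441 ± 440 and 1305 ± 142 (SD, n = 3), and the log2 difference was -0.10 (SE 0.277; limma adjusted p = 1.00). Without the replicate block its 95% interval reached from -0.71 to 0.51. That allows a mean level up to 1.64-fold lower or 1.43-fold higher on the log2(signal + 7.42) scale. With the block the interval was -0.57 to 0.37. In either fit it was the narrowest interval among the 12 probe sets. The difference turned to 0.10 without control array 1 and was -0.35 without control array 2.

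Ntrk2 1397246_at was the next in brightness. It read 930, 542 and 752 in the control group and 482, 737 and 475 in the Math2 group. The groups overlapped, with 2 of 3 numbered pairs lower on the Math2 array. The log2 difference was -0.38 (SE 0.304; 95% interval -1.06 to 0.29; limma adjusted p = 1.00), which allows up to 2.08-fold lower. Leaving out control array 1 brought it to -0.21, and leaving out either control array 2 or Math2 array 2 to -0.59. Over the 6 arrays this probe set and 1383135_at correlated at r = 0.648 (Spearman 0.714), a description that rests on 6 arrays with shared scaling. Both were highest on control array 1, where the Gapdh ratio was 13.8, and both had their lowest control value on control array 2, where it was 3.74. On Math2 arrays 1, 2 and 3 the ratio was 8.48, 5.997 and 8.14. Among these, 1397246_at was highest on Math2 array 2 and 1383135_at on Math2 array 1. The part of RNA quality in this spread was not tested.

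Ntrk2 1370687_a_at had the widest spread of the tested members. Its control signals of 200, 166 and 217 lay close together, while the Math2 arrays read 24.3, 350 and 132. Control arrays fell between the extremes of the Math2 arrays. The log2 difference of -0.78 (SE 0.700; 95% interval -2.33 to 0.76; limma adjusted p = 1.00) turned to 0.15 without Math2 array 1 and was -1.59 without Math2 array 2. The ending _a_at marks a probe set whose probes read more than a single transcript form of its gene, so the form behind these values is not known.

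The remaining Ntrk2 probe sets were dim. Probe set 1368972_at read 38.6, 26.7 and 97.8 in the control group and 99.98, 39.7 and 121 in the Math2 group. The Math2 array was the higher of each numbered pair, but the groups overlapped. The log2 difference was 0.66 (SE 0.539; 95% interval -0.53 to 1.85; limma adjusted p = 1.00, or 0.755 with the replicate block). Leaving out control array 2 brought it to 0.32 and leaving out Math2 array 2 to 1.10, and leaving out control array 3, Math2 array 1 or Math2 array 3 put this probe set below the filter. The bright Ntrk2 probe sets, at -0.10 and -0.38, had the opposite sign with all 6 arrays, and each of these intervals contains 0.

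Ntrk2 1370652_at, the dimmest, was below the filter. It read 12, 3.05 and 20.0 in the control group and 40.3, 38.9 and 25.5 in the Math2 group. Every Math2 value lay above every control value, and all lay far below the lowest array median. How often probe sets below the filter separate in this way was not counted. The log2 difference was 1.23 (SE 0.498; 95% interval 0.13 to 2.34), the only interval of the 12 that did not contain 0, and its limma adjusted p in the fit without a filter was 1.00. It was 0.63 with a pseudocount of 32 and 1.77 with a pseudocount of 1, which shows how far its size rests on the constant added to such dim signals. The exact two-sided permutation p was 0.1, the smallest that 3 against 3 arrays allow.

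Ntrk3, the receptor for Ntf3, had a single probe set, 1368939_a_at. It read 65.9, 75.8 and 85.2 in the control group and 50.7, 102 and 54.9 in the Math2 group. The lowest and the highest value both belonged to Math2 arrays, and all 6 lay below their own array's median. The means were 75.6 ± 9.65 and 69.1 ± 28.3 (SD, n = 3), with a log2 difference of -0.17 (SE 0.392; 95% interval -1.04 to 0.70; limma adjusted p = 1.00). It ranged from -0.46 without Math2 array 2 to -0.0038 without Math2 array 1 when 1 array was left out.

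**Figure D2:**
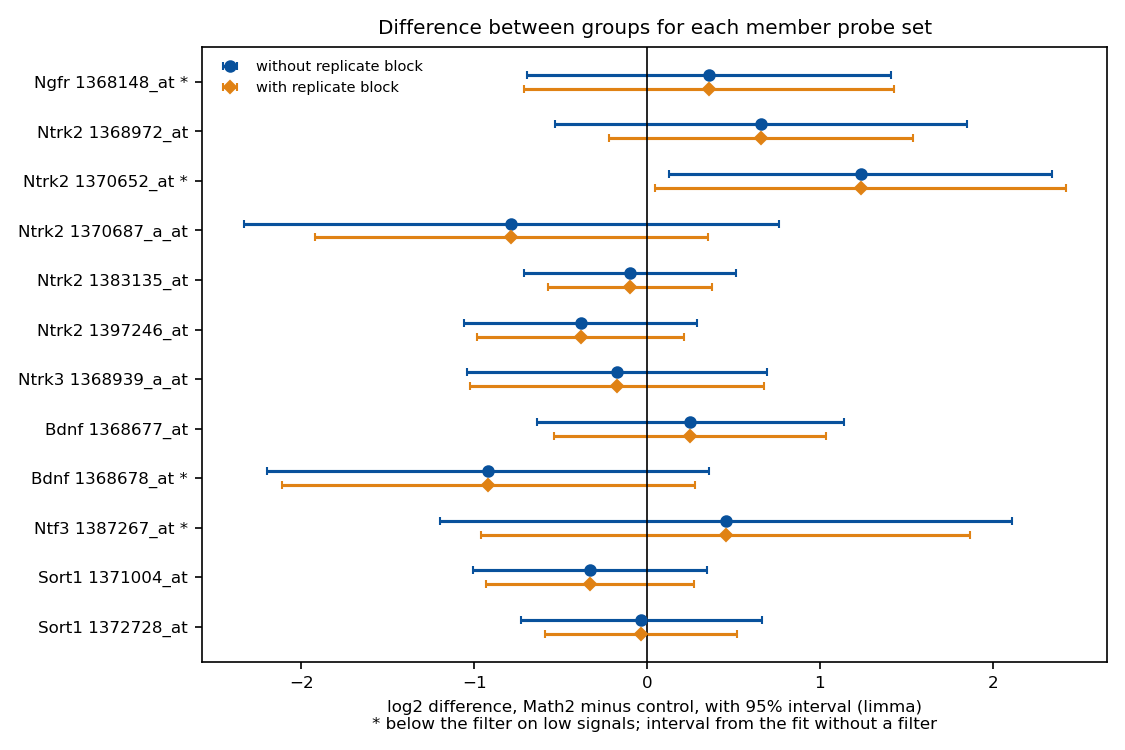
Log2 difference between Math2 and control for the 12 probe sets (points) with 95% intervals from limma, without (circles) and with (diamonds) the replicate number as a block; an asterisk marks the 4 probe sets below the filter. The intervals of 11 probe sets contain 0 without the block, and that of Ntrk2 1370652_at, from 0.13 to 2.34, does not.

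Among the ligands, Bdnf, the neurotrophin that cortical neurons release with activity, had a pair of probe sets that differed in sign. Probe set 1368677_at read 78.5, 83.6 and 151 in the control group and 85.6, 174 and 116 in the Math2 group. The groups overlapped, and 3 of the 6 values lay below their own array's median. The means were 104 ± 40.5 and 125 ± 44.8 (SD, n = 3), which made a log2 difference of 0.25 (SE 0.401; 95% interval -0.64 to 1.14; limma adjusted p = 1.00). Without Math2 array 2 the difference was -0.0034.

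Bdnf 1368678_at was dimmer and below the filter. It read 56.6, 63.6 and 79.0 in the control group and 62.7, 9.54 and 41.6 in the Math2 group. Math2 array 2, the highest of all for the other Bdnf probe set, was the lowest here. The log2 difference was -0.92 (SE 0.575; 95% interval -2.20 to 0.36), and it was -0.32 without Math2 array 2. The probe sets of Bdnf correlated at r = -0.592 over the 6 arrays (Spearman -0.257), so these arrays give no common direction for this gene.

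Ntf3, the ligand of TrkC, was read by 1387267_at, which was below the filter. It read 10.96, 37.1 and 84.3 in the control group and 86.3, 14.1 and 88.3 in the Math2 group. Signals of each group spanned nearly the whole range of the other, and all lay below the lowest array median. The log2 difference was 0.46 (SE 0.744; 95% interval -1.20 to 2.11), -0.14 without control array 1 and 1.17 without Math2 array 2. It had the widest interval of the 12, which allows a level up to 4.31-fold higher or 2.29-fold lower on the log2(signal + 7.42) scale.

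Sort1, the sortilin gene, was above every array median on all arrays with both probe sets. Probe set 1372728_at read 435, 386 and 636 in the control group and 339, 552 and 533 in the Math2 group. The groups overlapped. The means were 486 ± 133 and 474 ± 118 (SD, n = 3), with a log2 difference of -0.033 (SE 0.314; 95% interval -0.73 to 0.66; limma adjusted p = 1.00), whose sign turned with quantile normalization (0.027).

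Sort1 1371004_at was the only tested member without overlap. It read 229, 320 and 216 in the control group and 173, 213 and 211 in the Math2 group. The lowest control value, 216, and the highest Math2 value, 213, nearly met. The means were 255 ± 56.6 and 199 ± 22.4 (SD, n = 3), with a log2 difference of -0.33 (SE 0.305; 95% interval -1.005 to 0.35; limma adjusted p = 1.00; exact permutation p = 0.1, the smallest possible). Without control array 2 the difference was -0.16, and the groups overlapped with quantile normalization and with median centring. The Sort1 probe sets correlated at r = -0.067 over the 6 arrays (Spearman 0.0857).

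**Figure D3:**
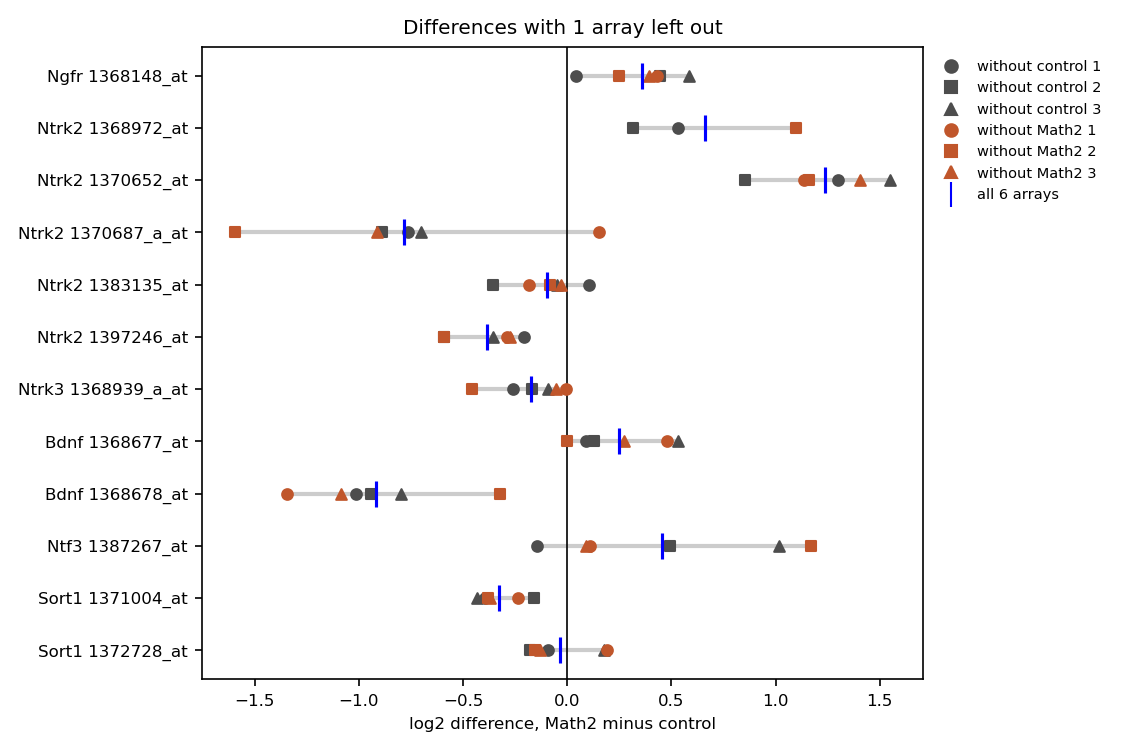
Log2 difference of each probe set with all 6 arrays (blue tick) and with 1 array left out (grey symbols for a control array, orange for a Math2 array); values are missing where the probe set then falls below the filter. Ntrk2 1370687_a_at moves from -1.59 to 0.15 and Ntf3 1387267_at from -0.14 to 1.17, while Ntrk2 1397246_at and Sort1 1371004_at stay below 0.

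Likeness over arrays is given as a description. Over the 6 arrays the tested probe sets most like Ngfr 1368148_at in log2 signal were those of Sec31a (r = 0.997), Zfp709 (r = 0.997) and Lysmd3 (r = 0.990), of 13753 compared. All of these were lowest on control array 1 and highest on Math2 array 2, as Ngfr was. The nearest to Ntrk2 1383135_at was Mms19 (r = 0.990), to Ntrk3 Wdr75 (r = 0.998), to Bdnf 1368677_at Mapre3 (r = 0.998), to Ntf3 Lclat1 (r = 0.986) and to Sort1 1372728_at Mycl (r = 0.984). For Ngfr 54 probe sets had an r above 0.95, and for Ntrk3 87 did.

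The wider pathway was described through 5 lists of 93 genes, of which 77 were matched by symbol and 63 passed the filter, each by its brightest probe set. Limma called 0 of the 63 with or without the replicate block, against the 0% and 0.0161% of all tested probe sets given above. Log2 differences were above 0 for 18 and below for 45, with a median of -0.12, where 54.3% of all tested probe sets were below 0. The groups did not overlap for 3 genes that were higher and 2 that were lower, against 3.7% and 4.3% of all tested probe sets.

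Among the other ligands and receptors, 2 of 6 tested genes had differences above 0 and 4 below (median -0.25, or -0.071 without control array 1). Nradd, a relative of Ngfr that carries a death domain, measured 1675 ± 432 and 1727 ± 319 (SD, n = 3), which made a log2 difference of 0.059. Sorcs3, a sortilin relative, had the lowest value of the list at -0.89 (SE 0.442; limma adjusted p = 1.00). It read 79.2, 74.0 and 126 in the control group and 26.3, 44.8 and 75.9 in the Math2 group. Each Math2 array was below the control array of the same number. Signals of the groups overlapped all the same, and 5 of the 6 lay below their own array's median. Ntf4, another ligand, was near the floor, with signals of 1.77 to 4.49.

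Of the genes that process precursors and receptors, 4 of 9 were above 0 and 5 below (median -0.20). That median turned to 0.12 without Math2 array 1, to 0.044 without control array 2 and to 0.025 with no filter, and it was -0.43 without Math2 array 2, -0.063 without control array 3 and -0.097 without Math2 array 3. Cpe, carboxypeptidase E, which is also a sorting receptor for precursor Bdnf, read 12064, 10977 and 13242 in the control group and 18783, 13577 and 15938 in the Math2 group. The groups did not overlap, and the log2 difference was 0.40 (SE 0.177; limma adjusted p = 1.00, or 0.552 with the replicate block). With quantile normalization it was 0.038; the spike-ins too were brighter on the Math2 arrays, and their part was not tested. Mmp9, a matrix protease that can cleave precursor Bdnf, had the lowest value at -0.38.

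Trk signalling adaptors and kinases lay mostly below 0, at 23 of 26 genes with a median of -0.15, and 22 of 26 did so with quantile normalization. None of the 26 was called in limma, and 0 had an unadjusted p under 0.05. Map2k2, a kinase that activates the Erk kinases, was the highest at 0.47 (SE 0.294), and Akt2, a survival kinase, the lowest at -0.50 (SE 0.426). The list's median was -0.27 without Math2 array 3 and -0.086 without Math2 array 1.

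Partners of Ngfr were 4 above and 7 below 0 of 11 (median -0.091), and 2 above and 9 below with quantile normalization. The median turned to 0.13 without Math2 array 1, to 0.050 without control array 1, to 0.014 without Math2 array 2 and to 0.0072 with no filter. Bex3, which binds the Ngfr death domain, measured 8571 ± 1257 and 10613 ± 726 (SD, n = 3) without overlap and differed by 0.32 on the log2 scale (SE 0.177; limma adjusted p = 1.00) that was 0.083 with quantile normalization. Traf6, an adaptor of Ngfr signalling, was the lowest at -0.48 (SE 0.322).

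Genes known to respond to Bdnf were 5 above and 6 below 0 of 11 (median -0.043, and 0.0093 with quantile normalization). The median turned to 0.050 without Math2 array 1 and to 0.025 without control array 1. Leaving out control array 3 brought it to -0.19 and leaving out Math2 array 2 to -0.11. Egr1, an early response transcription factor, read 2628, 2220 and 1504 in the control group and 3013, 3313 and 2862 in the Math2 group. The groups did not overlap, and the log2 difference was 0.57 (SE 0.247; limma adjusted p = 1.00, or 0.502 with the replicate block). Dusp5, a phosphatase that dampens Erk signalling, was the lowest at -0.58 (SE 0.405).

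**Figure D4:**
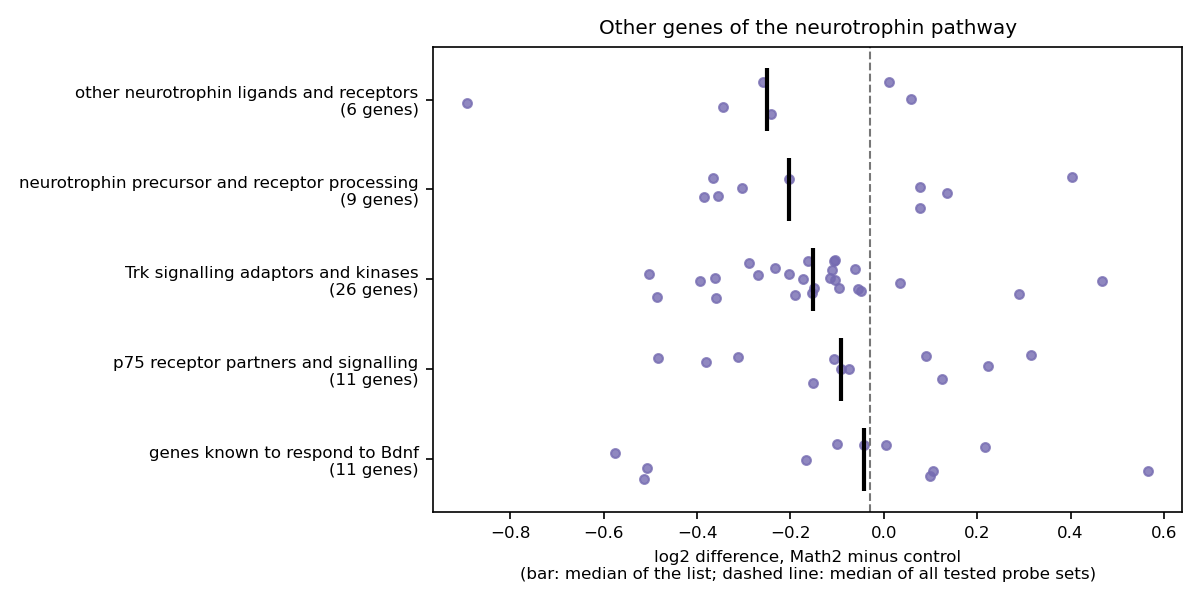
Log2 difference of each tested gene in the 5 pathway lists (points, spread vertically for legibility), with the list median as a black bar and the median of all tested probe sets, -0.031, as a dashed line. List medians run from -0.25 to -0.043, and 0 of the 63 genes were called.

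Markers of other cell types were summed per array, and bright genes carry such sums. Summed signals of 12 pan-neuronal markers ran from 17278 to 29236 on control arrays and from 16978 to 36638 on Math2 arrays, and those of 9 astrocyte markers from 24000 to 32602 and from 22275 to 38118. Of 3 Schwann cell and neural crest markers, which belong to cells known for Ngfr, Pmp22 was bright and Foxd3 and Erbb3 were dim. For 9 fibroblast and meningeal markers the sums were 9015 to 12296 and 8697 to 9293, and 0 of 7 tested genes had a log2 difference above 0. The groups did not overlap for 3 of these 7, Col1a1, Fbn1 and Aldh1a2, which were lower, against 4.3% of all tested probe sets; limma called 0 of them. The sums of 8 oligodendrocyte lineage markers were 8306 to 13310 and 8956 to 12586, and those of 8 endothelial and mural markers 718 to 1388 and 964 to 1350. Within the latter list 3 of 5 tested genes had log2 differences above 0 and 2 below. Pdgfrb, a receptor of mural cells, was higher without overlap, at 51.7 ± 13.2 and 200 ± 81.1 (SD, n = 3). Tek, an endothelial receptor, was lower without overlap, and limma called neither. Over all tested probe sets 3.7% were higher and 4.3% lower without overlap. The 9 microglial markers, all below the filter, summed to 303 to 366 on control arrays and 208 to 305 on Math2 arrays. Cd68 and Tyrobp were lower without overlap, and Csf1r, Aif1 and C1qa had log2 differences below 0 with overlap. C1qb, Cx3cr1, Ptprc and Itgam lay above 0, at 0.52, 0.32, 0.18 and 0.16. No share without overlap was counted among probe sets below the filter. These marker genes were named after their values were seen. The part of other cell types in the values of the neurotrophin genes was not tested.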

How the data were processed

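The authors deposited linear signal intensity values, 1 for each probe set on each array. MAS5 made them, per the submitters' processing notes, with a version and settings not given in the sources used here. This method subtracts mismatch and background brightness, so dim values are uncertain, and no detection calls were used. With the top and bottom 2% of values trimmed, every array had a mean of 500. Platform annotation named a single gene for 20826 probe sets, more than 1 for 436 and no gene for 9780, and 57 control probe sets were left out; 20764 single symbols matched RefSeq by gene number.

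Signals were taken as log2(signal + 7.42), the 10th percentile of positive values. Probe sets whose mean reached the 40th percentile (6.07) entered the test with limma 3.58.1 in R 4.3.3 (lmFit, eBayes with an intensity trend; two-sided, Benjamini-Hochberg over 18625 probe sets). Members below that limit were described from the fit without a filter. On simulated data for Math2 against control with 18625 probe sets, the fit recovered 9% of 2-fold and 85% of 4-fold changes without the block, with 4 false calls. With the block it recovered 5% and 79%, with 5 false calls. It thus missed most simulated 2-fold changes. The simulated noise was independent between arrays, without deviations shared by arrays of like number. These shares are averages over probe sets and do not apply to a single noisy member.

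Arrays of like number deviated together (r = 0.326, 0.476 and 0.372 across probe sets, each above 0.1). The numbers may thus pair the samples, which is read from the data and not the labels. The main fit did not use this pairing, and a fit with the number as a block was an alternative. SEs and intervals in the text come from fits without the block unless the block is named. Named are all member probe sets, the highest and lowest gene of each pathway list, and the probe sets most like each member. The members and lists were chosen with earlier results of these data known. Alternatives were the block, other pseudocounts, filters and scalings, no trend, and each array left out.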

Additional observations from a re-analysis of the deposited data

How the results depend on the processing

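The alternatives called no member and no pathway gene. With the replicate block, 3 probe sets of the whole table were called higher and 0 lower, none of them a member or pathway gene, and with the block and quantile normalization 4 higher and 2 lower, and 0 in every other setting. The block changed no call of a member or pathway gene. Of 113 tested member values under alternatives, 0 passed (limma adjusted p 0.755 to 1.00), and 7 of 12 probe sets kept their sign in every setting that gave a value. The sign turned for Ntrk2 1370687_a_at without Math2 array 1 (0.15; range -1.59 to 0.15 over the arrays left out), for Ntrk2 1383135_at without control array 1 (0.10; -0.35 to 0.10), for Bdnf 1368677_at without Math2 array 2 (-0.0034; -0.0034 to 0.53), and for Sort1 1372728_at with quantile normalization, with or without the block (0.027), and without control array 3 (0.18) or Math2 array 1 (0.19; -0.18 to 0.19); the cause was not tested. Ntf3, which was not tested, turned to -0.14 without control array 1. Ntrk2 1370652_at was 0.63 with a pseudocount of 32, which by its construction shrinks dim differences. With 1 array left out, 1 to 4 of the 12 probe sets were higher without overlap and 1 to 4 lower. Groups with fewer arrays separate more readily, and the share over all probe sets was not counted with 1 array left out. These counts therefore say nothing particular about the members. With quantile normalization, with or without the block, and with median centring, 0 were lower without overlap. List medians with 1 array left out ran from -0.34 to -0.071 for other ligands and receptors, from -0.43 to 0.12 for processing genes, from -0.27 to -0.086 for Trk adaptors, from -0.13 to 0.13 for Ngfr partners and from -0.19 to 0.050 for genes known to respond to Bdnf. With no filter the median was 0.025 for processing genes and 0.0072 for Ngfr partners. The dim signals of Ngfr, Ntf3, Ntrk3, Ntrk2 1370652_at and 1368972_at, and Bdnf 1368678_at, with 3 arrays per group, limit what can be said of them.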
